A study of Homo sapiens with 6 samples.

Results

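The integrin and laminin subunits are the protein-coding genes named ITGA, ITGB and LAMA, LAMB or LAMC, the chains of the receptors that hold cells to the extracellular matrix and of a main ligand in that matrix. The members were chosen by a rule on gene names, among the genes with a row in the count table, with earlier results of these data known. Those reported here numbered 36 of 39168 gene identifiers and comprised 18 integrin alpha subunits, 7 integrin beta subunits and 11 laminin chains. ITGB3 was not analysed here.

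RNA-seq was performed on CAL62, an established human cell line of anaplastic thyroid carcinoma (ATC), labelled wild type. Cells had been kept for 48 h with 50 nM erianin, a small molecule from plants of the genus Dendrobium, or with the solvent DMSO as control, and 3 libraries were made per group. All libraries came from this single cell line, and DMSO served as the control at a matching concentration. The labels describe replicate experiments without saying that the cultures were separate, so p-values measure the spread between these libraries, which may be partly technical. Between 25776301 and 34107727 reads per library were counted on named genes.

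Each integrin is a pair of 1 alpha and 1 beta subunit that spans the plasma membrane, binds matrix outside the cell and links to actin or keratin filaments inside it. Laminins are trimers of an alpha, a beta and a gamma chain, secreted by epithelial cells into the basement membrane. Laminin with the LAMA3 and LAMB3 chains anchors epithelia and is bound by the integrins that contain ITGA3 or ITGA6.

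Of the 36 members, 29 had enough reads to be tested and 3 fell with erianin, the laminin chains LAMC3 and LAMA3 and the integrin subunit ITGA3, while 0 rose. A gene was called when its edgeR quasi-likelihood test gave a Benjamini-Hochberg adjusted p under 0.05 over all genes tested and its log2 fold change exceeded 0.5 in size. By the same rule 3.36% of the 12821 genes tested were called downregulated, 5.37% upregulated and 8.73% either way. DESeq2 called the same 3 members downregulated and ITGA7 upregulated, against 3.62% and 5.75% of the genes it tested. On the adjusted p alone, LAMB1 and LAMA1 were also lower, giving 5 members lower and 0 higher, against 7.69% and 7.22% of all genes. The median log2 fold change was -0.17 over the tested members and 0.0014 over all genes. By class it was -0.26 for the 10 tested laminin chains, -0.30 for the 6 tested beta subunits and 0.13 for the 13 tested alpha subunits. These medians cover members that passed the filter on low counts and are given as a description.

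1 library stood apart within its group. DMSO replicate 3 differed from the other DMSO libraries by a root of summed squared log2 CPM differences of 64.1 and 62.9, whereas DMSO replicates 1 and 2 differed by 37.2 and the erianin libraries by 28.2 to 29.01. The per-gene deviations of DMSO replicates 1 and 2 from the mean of all libraries rose with the GC content of the transcript, with Spearman correlations across genes of 0.46 and 0.52. Those of DMSO replicate 3 and the 3 erianin libraries went the other way, at -0.38 and between -0.24 and -0.17. Genes are not independent replicates, and the part of GC content in the results was not tested beyond the values given here with its trend removed. Without DMSO replicate 3, 4 members were called downregulated (ITGA3, LAMC3, LAMA5 and ITGAD) and 4 upregulated (ITGA1, ITGA2, ITGA7 and ITGB7), against 6.11% and 11.4% of all genes. With the GC trend removed, the calls were LAMC3 downregulated and ITGA7 and ITGAE upregulated, against 3.53% and 5.69% of all genes.

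**Figure D1:**
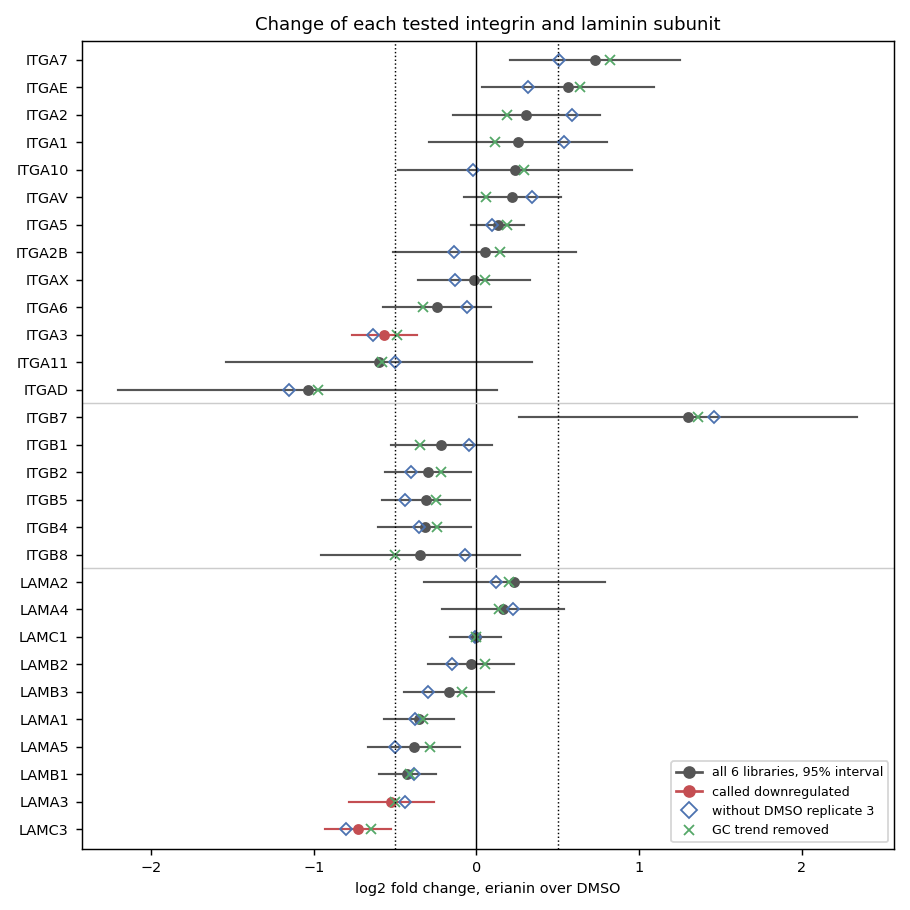
Log2 fold change of each tested subunit, erianin over DMSO (horizontal axis), with the 95% interval from the fit of all 6 libraries as a line, and the value without DMSO replicate 3 and with the GC trend removed as open diamonds and crosses. The 3 called members, in red, lie left of -0.5, and most intervals of the alpha subunits cross 0.

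The largest change among the called members was in a laminin gamma chain. LAMC3, known from nerve, brain surface and other basement membranes, lies at chr9:131009082-131094473, plus strand of GRCh38 (ENSG00000050555). Its levels were 96.4, 103 and 86.8 CPM (counts scaled to the TMM-normalised library size) with DMSO and 58.8, 56.8 and 57.3 CPM with erianin. The groups did not overlap, and the erianin libraries spanned a range of only a few CPM. LAMC3 fell by 39.7% (log2 fold change -0.73, SE 0.09, 95% interval -0.93 to -0.53, edgeR adjusted p = 0.00394) and was called in all 16 alternative fits at the same thresholds.

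LAMC1 is the gamma chain shared by most laminins. It gave 385, 404 and 395 CPM with DMSO and 394, 412 and 374 CPM with erianin. The groups overlapped throughout, the log2 fold change was -0.0050 (SE 0.07), and the 95% interval of -0.16 to 0.15 left room for changes of that size in either direction (edgeR adjusted p = 0.973). The annotated exons of LAMC1 and LAMC3 overlap those of no other gene.

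Among the 5 laminin alpha chains, LAMA3 fell and LAMA1 and LAMA5 were lower without being called. LAMA3, an alpha chain of epithelial laminin, lies at chr18:23689443-23956222, plus strand (ENSG00000053747), and none of its exons overlaps another gene. Its levels were low, at 24.3, 27.1 and 30.8 CPM with DMSO and 18.7, 19.7 and 18.9 CPM with erianin, and the groups did not overlap. The fall was 30.4% (log2 fold change -0.52, SE 0.11, 95% interval -0.78 to -0.26, edgeR adjusted p = 0.0219). DMSO replicate 3 was the highest library for LAMA3. Without it the log2 fold change was -0.44, under the threshold, with an edgeR adjusted p of 1.96e-05, and with the GC trend removed it was -0.498. LAMA3 was called in 5 of 16 alternative fits. The edgeR adjusted p was 0.0616 without DMSO replicate 2, 0.0937 to 0.11 on leaving out any 1 erianin library, and that of limma was 0.101 to 0.136 in the fits of TPM.

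LAMA5, the alpha chain of most adult epithelial and vascular basement membranes, had the highest level of the alpha chains in TPM, the unit that also scales each count by the length of the gene, between 89.0% and 91.9% of their summed TPM in every library. The size of this share depends on the lengths used. Relative to LAMB3 these were 1.65 for LAMA5 and 3.27 for LAMA3, whose annotated exon bases number 14291 and 14678. LAMA5 gave 373, 428 and 309 CPM with DMSO and 272, 303 and 277 CPM with erianin, with no overlap. Its log2 fold change of -0.38 (SE 0.12) did not pass the test (edgeR adjusted p = 0.0735). Without DMSO replicate 3, the lowest DMSO library, the value was -0.503 and the edgeR adjusted p 1.94e-10, a call. With the GC trend removed the value was -0.28 (edgeR adjusted p = 0.052), not a call.

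LAMA1, the alpha chain of early embryonic laminin, gave 25.9, 28.6 and 26.4 CPM with DMSO and 20.6, 21.9 and 20.9 CPM with erianin. The groups did not overlap, and the log2 fold change of -0.35 (SE 0.09) passed the adjusted p (edgeR, 0.0405) but not the fold-change threshold. Its edgeR adjusted p was 0.000113 without DMSO replicate 3 and 0.081 to 0.171 on leaving out any other library. It was 0.11 with a replicate block and 0.0298 with the GC trend removed. Of its exon bases 11.1% overlap 2 genes annotated on the opposite strand. LAMA2, the alpha chain of muscle laminin, stayed between 1.52 and 2.49 CPM and LAMA4, the alpha chain of vessel laminin, between 4.16 and 6.24 CPM, with overlapping groups and log2 fold changes of 0.23 and 0.16 (edgeR adjusted p = 0.559 and 0.538).

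Of the beta chains, LAMB3 belongs to epithelial laminin. It gave 1377, 1444 and 1068 CPM with DMSO and 1130, 1219 and 1111 CPM with erianin. DMSO replicate 3 lay below all erianin libraries and the other DMSO libraries above them, so the groups overlapped. The log2 fold change was -0.17 (SE 0.12, 95% interval -0.45 to 0.11, edgeR adjusted p = 0.384). Without DMSO replicate 3 it was -0.30 (edgeR adjusted p = 3.83e-07), still under the threshold in size. With the GC trend removed it was -0.088 (edgeR adjusted p = 0.464).

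LAMB1, the beta chain of the most widespread laminins, gave 298, 319 and 340 CPM with DMSO and 247, 238 and 228 CPM with erianin. Every erianin library was lower than every DMSO library. Its log2 fold change was -0.42 (SE 0.08, 95% interval -0.60 to -0.25), which passed the adjusted p (edgeR, 0.0129) and missed the fold-change threshold. The edgeR adjusted p was 0.0602 to 0.0866 without 1 erianin library and at most 0.0442 without 1 DMSO library. It was 0.0576 with a replicate block. LAMB2, the beta chain of kidney and neuromuscular laminins, gave 264, 288 and 214 CPM with DMSO and 241, 264 and 245 CPM with erianin. Its groups overlapped, and the log2 fold change was -0.031 (SE 0.11, edgeR adjusted p = 0.887).

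LAMA3 and LAMB3 thus differed in level. Mean levels with DMSO were 551 ± 110 TPM (SD, n = 3) for LAMB3 and 3.54 ± 0.274 TPM for LAMA3. The TPM table uses a length for LAMA3 that is 3.27 times that for LAMB3, and LAMA3 is also known to have a shorter transcript form, so its level per length is uncertain.

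**Figure D2:**
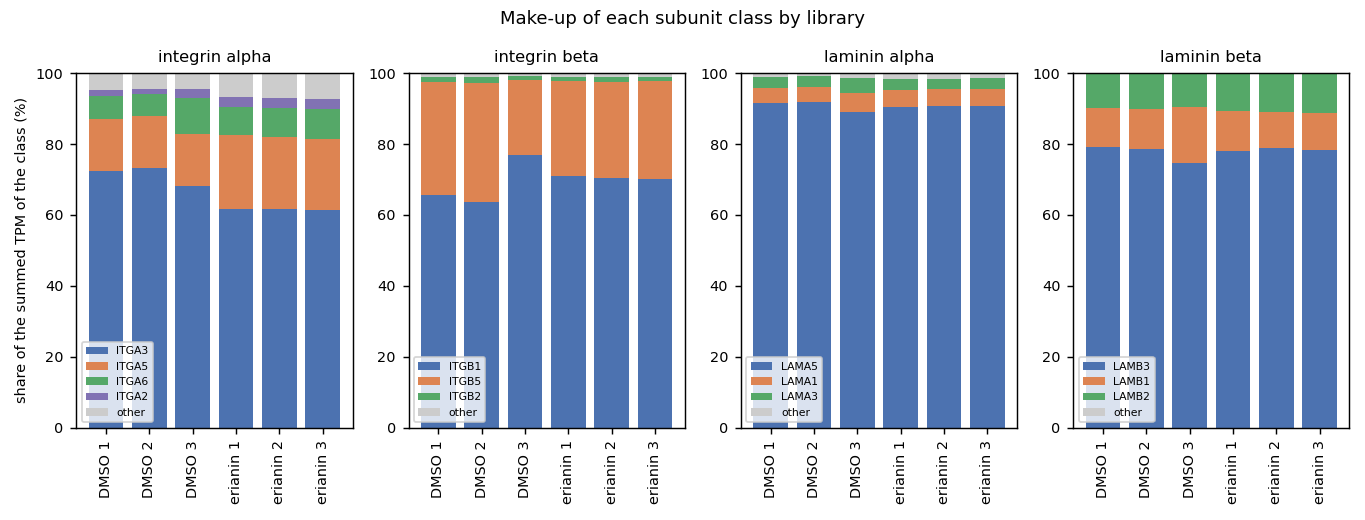
Share of the summed TPM of each subunit class (vertical axis, %) held by its leading members in each of the 6 libraries, as stacked bars. ITGA3 holds less of the alpha subunits in each erianin library than in any DMSO library, and LAMA5 and LAMB3 lead the laminin alpha and beta chains in all 6.

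The promoter table of RefSeq (GRCh38.p14) held 33 windows, the 250 bases before a start site, for 26 members, and of the called members only for LAMA3. The letters TGANTCA, which cover the sites TGACTCA and TGAGTCA of AP-1, the family of FOS and JUN factors, were searched on both strands. A site read on both was counted once. The letters stood in 2 of the 33 windows (6.06%), 1 of LAMA3 and 1 of LAMB3, close to the 6.57% of 35116 windows of the same length over all genes. Both shares count any base at N, whereas the member matches all read TGACTCA or TGAGTCA. The stretches that hold them are printed with the letters in capitals, each 27 bases long and on the strand of the gene, so that the letters behind this count can be read.
LAMA3 first site, chr18:23872885-23872911, plus strand: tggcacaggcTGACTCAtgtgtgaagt
LAMA3 second site, chr18:23872941-23872967, plus strand: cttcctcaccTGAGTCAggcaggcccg
LAMB3 site, chr1:209651425-209651451, minus strand: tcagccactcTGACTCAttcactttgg
The LAMA3 window belongs to a start site 183577 bases inside the gene, that of the shorter form, and 180 of its 250 bases are annotated as exon of another transcript. The GC box letters GGGCGG stood in 17 of the 33 windows (51.5%), of 14 members, against 42.6% of all windows. A match is a description of the sequence, and binding was not measured.

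Among the integrin alpha subunits that bind laminin, ITGA3 fell, and it was the alpha subunit with the highest level per length. It lies at chr17:50055968-50090481, plus strand (ENSG00000005884), with no exon shared with another gene. It gave 1836, 1979 and 1653 CPM with DMSO and 1220, 1272 and 1203 CPM with erianin, and the highest erianin library lay below the lowest DMSO library. ITGA3 fell by 32.4% (log2 fold change -0.57, SE 0.09, 95% interval -0.76 to -0.37, edgeR adjusted p = 0.00766). The call held without DMSO replicate 3 (-0.64), and with the GC trend removed the value was -0.49 with an edgeR adjusted p of 0.00556, just under the fold-change threshold. Leaving out any 1 erianin library gave edgeR adjusted p-values from 0.0524 to 0.0579, and ITGA3 was called in 9 of 16 alternative fits.

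ITGA6, which pairs with ITGB4 in hemidesmosomes and with ITGB1 elsewhere, gave 159, 159 and 227 CPM with DMSO and 147, 159 and 155 CPM with erianin. DMSO replicate 3 was well above the other 5 libraries. The log2 fold change was -0.24 (SE 0.14, edgeR adjusted p = 0.294), without that library -0.05 and, with the GC trend removed, -0.33 (edgeR adjusted p = 0.0433). ITGA7, known as the laminin receptor of muscle, gave 3.24, 3.27 and 1.93 CPM with DMSO and 5.18, 4.55 and 4.197 CPM with erianin. All erianin libraries were higher, and the log2 fold change of 0.73 (SE 0.22) did not pass the test (edgeR adjusted p = 0.0697), although it was called without DMSO replicate 3, with the GC trend removed and by DESeq2.

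ITGA3, ITGA6 and ITGA7 together held 79.3%, 79.8% and 78.4% of the summed alpha-subunit TPM with DMSO and close to 70.1% in each erianin library. The difference was -9.10 percentage points (exact two-sided permutation p = 0.1, the smallest that 3 against 3 libraries allow, and 0.2 after Benjamini-Hochberg adjustment over 2 shares). ITGA3 alone made up 72.5%, 73.3% and 68.3% with DMSO and 61.8%, 61.7% and 61.4% with erianin. ITGA3 remained the first alpha subunit in every library, and the others together held more of the summed TPM in each erianin library than in any DMSO library.

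ITGA5, the alpha subunit of the fibronectin receptor, took the second place. It gave 238, 255 and 231 CPM with DMSO and 266, 273 and 255 CPM with erianin, with erianin replicate 3 just under the level of DMSO replicate 2. The log2 fold change was 0.13 (SE 0.07, 95% interval -0.03 to 0.30, edgeR adjusted p = 0.256). Its share of the alpha-subunit TPM was 14.4%, 14.5% and 14.7% with DMSO and 20.7%, 20.4% and 19.97% with erianin. A share also depends on the level of the other members, ITGA3 above all.

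ITGAV, the alpha subunit of the vitronectin receptors, gave 30.3, 27.5 and 36.6 CPM with DMSO and 33.4, 38.4 and 38.2 CPM with erianin. The groups overlapped, and the log2 fold change was 0.22 (SE 0.13, edgeR adjusted p = 0.284). It was 0.34 without DMSO replicate 3 (edgeR adjusted p = 0.000202) and 0.06 with the GC trend removed. ITGA2B, known from platelets, stayed between 1.80 and 3.37 CPM with a log2 fold change of 0.05 (edgeR adjusted p = 0.913), and ITGA8 was listed at 0 in all 6 libraries, where 3 reads would correspond to 0.0857 to 0.123 CPM. Of the members that bind the RGD tripeptide of fibronectin and vitronectin, 3 of 4 were tested and 0 were called.

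Among the collagen-binding subunits, ITGA2 and ITGA1 were called only when DMSO replicate 3 was left out. ITGA2 gave 36.2, 36.7 and 60.0 CPM with DMSO and 53.6, 54.96 and 56.1 CPM with erianin. DMSO replicate 3 was the highest of all libraries, and the erianin libraries were all above the other DMSO libraries. With all libraries the log2 fold change was 0.31 (SE 0.19, edgeR adjusted p = 0.325), and without DMSO replicate 3 it was 0.59 (edgeR adjusted p = 9.39e-10). ITGA1, its neighbour 30115 bases away on chromosome 5, had the same pattern at 3.37, 4.41 and 6.52 CPM with DMSO and 5.97, 6.01 and 5.20 CPM with erianin, with log2 fold changes of 0.26 (edgeR adjusted p = 0.506) and, without that library, 0.54 (0.00451). With the GC trend removed they were at 0.19 and 0.12. Of the exon bases of ITGA1, 6.86% overlap 4 other annotated genes, on both strands. ITGA10 and ITGA11, collagen receptors of cartilage and of fibroblasts, stayed at or under 1.23 CPM and did not pass the test (log2 fold changes 0.24 and -0.60, edgeR adjusted p = 0.656 and 0.36).

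**Figure D3:**
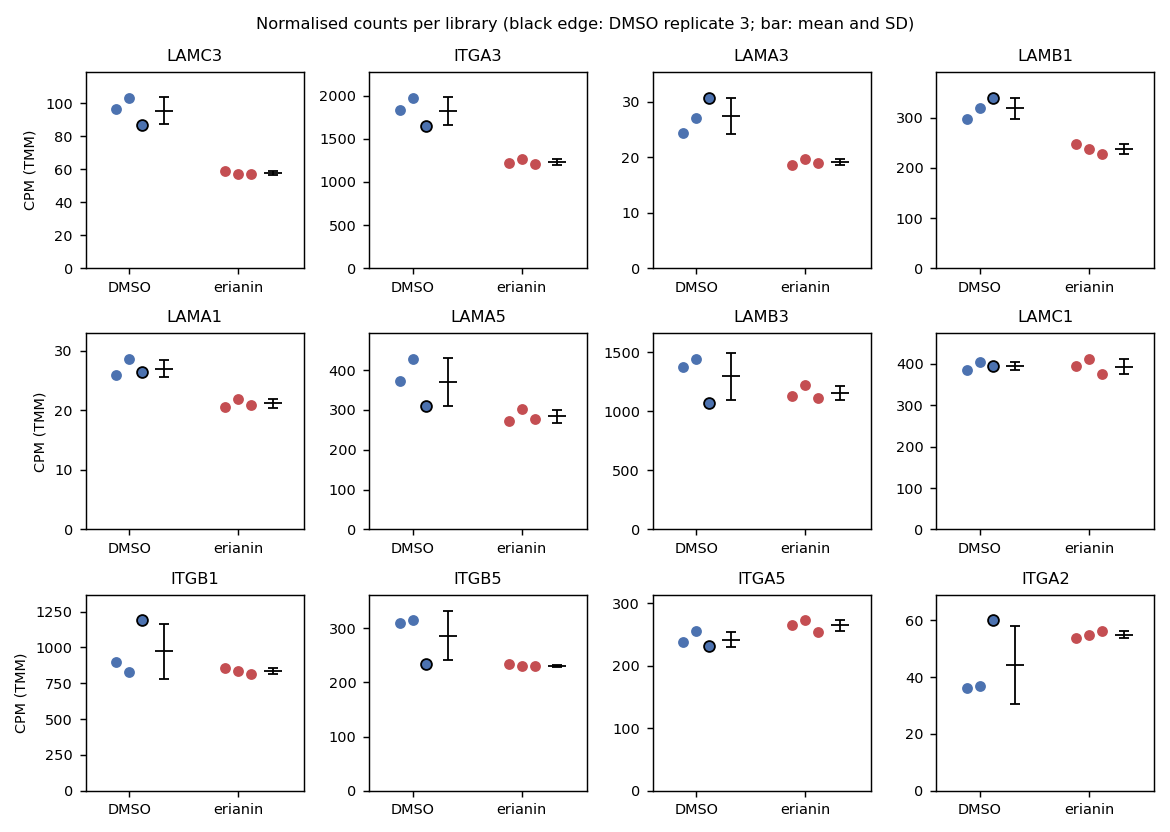
Normalised counts (CPM with TMM factors, vertical axes from 0) of 12 members in each library, with the mean and SD beside the points and DMSO replicate 3 outlined in black. LAMC3, ITGA3, LAMA3, LAMB1, LAMA1, LAMA5 and, barely, ITGB5 separate the groups. DMSO replicate 3 lies outside the range of the other DMSO libraries for all members shown except LAMA1 and LAMC1, so also for the 3 called members.

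The beta subunits gave 0 calls. ITGB1, the common partner of the laminin, collagen and fibronectin binding alpha subunits, held most of the beta-subunit TPM. It gave 895, 830 and 1191 CPM with DMSO and 858, 837 and 816 CPM with erianin. The erianin libraries lay close to DMSO replicates 1 and 2, and DMSO replicate 3 was the highest. The log2 fold change was -0.22 (SE 0.13, 95% interval -0.53 to 0.09, edgeR adjusted p = 0.317). It was -0.05 without that library and -0.35 with the GC trend removed (edgeR adjusted p = 0.0168).

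The share of ITGB1 in the beta-subunit TPM was 65.7%, 63.7% and 76.9% with DMSO and 70.9%, 70.5% and 70.2% with erianin. The groups overlapped (difference 1.76 percentage points, exact two-sided permutation p = 0.7, and 0.7 after adjustment). The TPM ratio of ITGA3 to ITGB1 was 1.54, 1.79 and 1.04 with DMSO and 1.07, 1.14 and 1.11 with erianin, so that it was lower in the erianin libraries than in DMSO replicates 1 and 2 but not than in DMSO replicate 3.

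ITGB5, a partner of ITGAV, gave 310, 315 and 234 CPM with DMSO and 233, 230 and 230 CPM with erianin. The erianin libraries were all below the DMSO libraries, though barely below DMSO replicate 3. The log2 fold change was -0.31 (SE 0.12, edgeR adjusted p = 0.116), and -0.44 without that library (edgeR adjusted p = 4.16e-11). With the GC trend removed it was -0.25 (edgeR adjusted p = 0.0676). ITGB2, the beta subunit of leukocyte integrins, gave 37.6, 38.5 and 30.3 CPM with DMSO and 28.1, 29.8 and 28.6 CPM with erianin, without overlap, at -0.30 (SE 0.11, edgeR adjusted p = 0.121).

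ITGB4, the hemidesmosome subunit that joins ITGA6 to keratin filaments, gave 18.4, 15.7 and 15.7 CPM with DMSO and 13.5, 14.5 and 11.9 CPM with erianin. Its groups did not overlap either, and the log2 fold change of -0.32 (SE 0.12) did not pass the test (edgeR adjusted p = 0.123). ITGB8, an activator of latent TGF-beta, stayed between 1.87 and 4.14 CPM with overlapping groups, at -0.34 (edgeR adjusted p = 0.422), or -0.07 without DMSO replicate 3.

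ITGB7, a subunit of lymphocyte homing receptors, was near the limit of detection at 0.123, 0.616 and 0.546 CPM with DMSO and 1.11, 1.32 and 0.885 CPM with erianin. All erianin libraries were higher, at a log2 fold change of 1.30 (SE 0.45, edgeR adjusted p = 0.093). Of its exon bases 42.1% overlap ZNF740 on the opposite strand, and the sources give no strand setting for the counting, so reads of these genes cannot be told apart.

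The leukocyte alpha subunits ITGAE, ITGAX and ITGAD were tested. ITGAE, which binds E-cadherin, gave 14.4, 13.7 and 7.55 CPM with DMSO and 17.0, 17.4 and 18.2 CPM with erianin. All erianin libraries were higher and DMSO replicate 3 was the lowest. The log2 fold change was 0.56 (SE 0.23, edgeR adjusted p = 0.14), or 0.32 without that library and 0.64 with the GC trend removed (edgeR adjusted p = 0.0417). Of the exon bases of ITGAE, 7.59% overlap 2 genes annotated on the opposite strand. ITGAX stayed between 12.7 and 17.1 CPM at -0.014 (edgeR adjusted p = 0.963), and ITGAD was at or under 0.894 CPM at -1.04 (SE 0.50, edgeR adjusted p = 0.205). ITGAX and ITGAD lie 10314 bases apart on chromosome 16.

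The members left untested were ITGA8, at 0, and ITGA4, ITGA9, ITGAL, ITGAM, ITGB6 and LAMB4, with 0 to 32 reads per library. ITGAM had the most, 0, 4 and 12 reads with DMSO and 6, 9 and 32 with erianin. These genes did not pass the filter on low counts. The fit without that filter tested 35 members and called none of these genes.

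Ordered by mean TPM over the libraries, the members ran from LAMB3 through ITGA3, ITGB1, LAMC1, ITGB5, ITGA5, LAMA5, LAMB1 and LAMB2 to ITGA6. This order depends on the lengths behind the TPM values. For LAMC1 that length was 0.83 times that of LAMB3, although their annotated exon bases number 8406 and 4688. The order differed in part by group. Only the order within a group is read here, as the TPM totals differed between libraries. They came to 59.1% to 73.5% of the nominal total with DMSO and 75.1% to 78.3% with erianin. In the DMSO libraries LAMA5 at 95.3 TPM and LAMB1 at 88.5 TPM lay above ITGA5 at 81.5 TPM. In the erianin libraries ITGA5 was at 102 TPM, and LAMB2 at 77.7 TPM lay above LAMB1 at 75.8 TPM. With DMSO, LAMB3 at 551 ± 110 TPM (SD, n = 3) and ITGA3 at 401 ± 54.4 TPM differed by less than the sum of their SDs, as did ITGA5 and LAMA5, and LAMA5 and LAMB1.

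**Figure D4:**
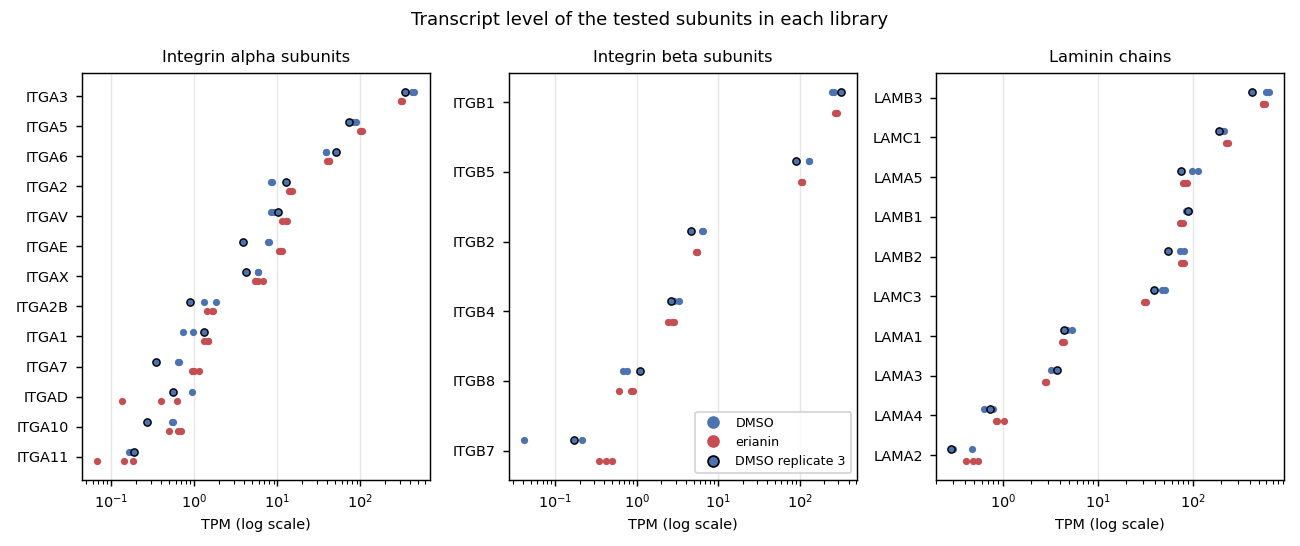
TPM (log scale) of each tested member in each library, by class, with DMSO in blue, erianin in red and DMSO replicate 3 outlined in black. LAMB3, at a mean of 551 TPM with DMSO and 559 TPM with erianin, is the highest laminin chain shown, and the alpha and beta subunits are led by ITGA3 and ITGB1. The TPM totals differ between libraries, so levels in TPM are not compared between the groups.

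In separation of the libraries, 10 of the 29 tested members had all erianin libraries below all DMSO libraries and 3 had them all above (ITGA7, ITGAE and ITGB7). Over all genes these shares were 19.3% and 19.5%, or 38.7% in either direction. Of the 10, 5 were laminin chains, 3 were beta subunits and 2 were alpha subunits.

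Genes that act with integrins and laminins were listed by function. Of 34 focal adhesion adaptors and kinases, which join integrins to actin, 33 were tested, 2 rose and 0 fell, against 5.37% and 3.36% of all genes. NEDD9, a scaffold of the CAS family, rose from 0.452, 0.524 and 0.514 CPM to 1.70, 1.603 and 1.37 CPM (log2 fold change 1.63, SE 0.23, edgeR adjusted p = 0.00655). FERMT3, the kindlin of blood cells, rose from 0.616, 1.42 and 0.995 CPM to 2.23, 2.86 and 3.28 CPM (1.44, SE 0.30, edgeR adjusted p = 0.0213).

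Both genes were at low levels. The 3 members of this list with the highest TPM, all actin-linked, were not called: the crosslinker ACTN4 at -0.44 passed only the adjusted p (edgeR, 0.0127), and the integrin activator TLN1 and the filamin FLNA stood at -0.07 and -0.12 (edgeR adjusted p = 0.627 and 0.483). On the adjusted p alone 4 members were higher and 7 lower, against 7.22% and 7.69% of all genes, and the median of the list was -0.12.

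Of 14 laminin partners, hemidesmosome and other anchoring genes, all tested, 2 rose and 1 fell, against 5.37% and 3.36% of all genes. PLEC, the plakin that ties ITGB4 to keratin filaments, gave 1216, 1318 and 1105 CPM with DMSO and 827, 837 and 803 CPM with erianin, without overlap. It fell by 0.56 on the log2 scale (SE 0.08, edgeR adjusted p = 0.00718). COL17A1, a hemidesmosome collagen, rose from 2.09, 2.50 and 2.47 CPM to 3.98, 4.84 and 3.63 CPM (0.81, SE 0.17, edgeR adjusted p = 0.0225), and NID2, which links laminin to collagen, rose by 1.09 (SE 0.25, edgeR adjusted p = 0.0276) and stayed at or under 1.66 CPM.

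The most abundant members of this list, the proteoglycan SDC4, the ribosomal protein RPSA that is also described as a laminin receptor, and the tetraspanin CD151, were not called (0.26, -0.22 and -0.31, edgeR adjusted p = 0.296, 0.42 and 0.36). RPSA has near-identical copies in the genome and its counts are uncertain. The median of the list was -0.16.

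Of 18 partners of integrins at the cell surface, such as tetraspanins and adhesion molecules, 17 were tested, 2 rose and 0 fell, against 5.37% and 3.36% of all genes, with a median of 0.02. L1CAM, a neural adhesion molecule and integrin ligand, rose from 1.89, 1.51 and 2.38 CPM to 4.98, 4.84 and 5.31 CPM (log2 fold change 1.39, SE 0.19, edgeR adjusted p = 0.00567). CD82, a tetraspanin, rose from 24.6, 24.7 and 18.6 CPM to 33.5, 32.7 and 32.8 CPM (0.55, SE 0.13, edgeR adjusted p = 0.0287). Both genes had all erianin libraries above all DMSO libraries.

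ICAM1, a ligand of leukocyte integrins, was the most abundant of these partners at -0.26 (edgeR adjusted p = 0.0337, under the fold-change threshold), followed by BSG at -0.08 and CD63 at 0.15, which did not pass (0.749 and 0.6). Over the 3 lists 7 genes were called. Leaving out 1 library moved that number between 2 and 11, the highest without DMSO replicate 3 and the lowest without erianin replicate 1 or 2. Of the 6 fits that each left out 1 library, NEDD9 and L1CAM were called in 6, PLEC in 3, FERMT3 and NID2 in 2, COL17A1 in 1 and CD82 in 0. PLEC was also not called with the GC trend removed or in the fits of TPM.

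Marker genes were read for the label and for other cells. Of 6 epithelial and carcinoma markers, CDH1, the epithelial cadherin, had 0 to 9 reads per library. The keratin genes KRT8, KRT18 and KRT19 gave 1182 to 1556, 738 to 994 and 349 to 563 CPM, and EPCAM 17.7 to 23.3 CPM. They were not called, at log2 fold changes of 0.0097, -0.21, -0.21 and 0.26 (edgeR adjusted p = 0.967, 0.232, 0.445 and 0.132). The list had summed levels of 3823 to 4333 CPM with DMSO and 3476 to 3615 CPM with erianin. VIM, a mesenchymal filament gene that many carcinoma lines express, gave 1202, 1153 and 1511 CPM of this sum with DMSO and 926, 956 and 915 CPM with erianin (log2 fold change -0.47, edgeR adjusted p = 0.03, under the fold-change threshold). Of 7 thyroid follicular markers, TSHR and NKX2-1 were at 0, and PAX8 carried nearly all of the summed 644 to 742 CPM with DMSO and 421 to 435 CPM with erianin. PAX8, a thyroid transcription factor, gave 645, 643 and 739 CPM with DMSO and 433, 433 and 419 CPM with erianin, and fell by 0.66 on the log2 scale (edgeR adjusted p = 0.00403).

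Leukocyte markers, read beside ITGB2, ITGB7 and the leukocyte alpha subunits, summed to 1.96 to 3.28 CPM with DMSO and 3.18 to 4.48 CPM with erianin. CD14 carried most of this, at 1.80 to 3.04 CPM and 2.83 to 4.33 CPM, and the other 4 had 0 to 6 reads per library. Platelet markers, beside ITGA2B, summed to 1.41 to 2.71 CPM and 1.41 to 2.60 CPM, with PF4 and GP9 at 0. Endothelial markers, with all 3 detected, summed to 0.225 to 0.308 CPM and 0.515 to 0.771 CPM. Fibroblast markers, beside ITGA11, summed to 43.2 to 47.3 CPM and 50.3 to 56.6 CPM, with 3 of 4 detected and DCN at 0. Of these, COL1A2 rose from 11.1, 11.1 and 7.16 CPM to 25.1, 26.8 and 22.9 CPM (log2 fold change 1.35, edgeR adjusted p = 0.00532), while COL1A1 stood at -0.32 (edgeR adjusted p = 0.0613). Their part in the results was not tested, and in bulk RNA fewer cells of a type and less RNA per cell cannot be told apart.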

How the data were processed

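RNA of 6 libraries was sequenced on a BGISEQ-500. The authors deposited 2 tables, unnormalised counts of reads on each gene, and TPM values of the same libraries. Per the labels, fastp 0.23.2, STAR 2.7.10, featureCounts 2.0.1 and StringTie 2.2.1 were used with GRCh38; their roles, the annotation and the strand setting are not given in the sources used here. The deposited TPM columns sum to 59.1% to 78.3% of their nominal total. The count table had 65807 rows. Of these, 26480 carried no identifier (0.00385% to 0.00515% of counts) and were left out. Symbols were matched by identifier for 38259 of 39168, and positions and GC content came from GENCODE 29 on GRCh38. Of rows sharing an identifier, the one with most counts was taken.

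Counts of all genes were fitted with edgeR 4.0.16 in R 4.3.3 (TMM factors, filterByExpr by group, glmQLFit, glmQLFTest) without a replicate term. Levels within a group of genes were compared in TPM only. Shares were compared by exact permutation. The edgeR, DESeq2 and limma steps were run on simulated counts with the same noise setting in every library. A library standing apart and the shares were not simulated. Alternatives were DESeq2 1.42.0, other scaling factors and count filters, limma 3.58.1 on log2(TPM + 1) or log2(TPM + 0.1), a replicate block, and each library left out. Removal of the trend on GC content (loess span 0.5) was chosen after seeing the data.

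Values in every library were given for members called in the edgeR fit and for the 4 members of highest mean TPM in each of the alpha, beta and laminin groups. Other members tested were given with values or ranges. From each of the 3 related lists, called genes and the 3 of highest TPM were named. Of 37 genes that the name rule selects, 1 is not reported here, and likewise 1 marker gene. Members and lists were chosen with earlier results of these data known. Intervals cover the 3 libraries per group, and floors of 3 reads cover counting error only.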

Additional observations from a re-analysis of the deposited data

How the results depend on the processing

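The common biological coefficient of variation came to 0.139 over 6 libraries and to 0.0421 when that library was left out. Of 445 alternative values, 391 kept their direction and their side of the threshold, 18 lost and 9 gained a call, and 27 changed sign. Only the called members could lose a call, and LAMC3, ITGA3 and LAMA3 kept theirs in 16, 9 and 5 of 16 alternatives. Upregulated members numbered 0, but 1 by DESeq2 (ITGA7), 2 with the GC trend removed and 0 to 4 on leaving out 1 library, with 4 without DMSO replicate 3. Downregulated members numbered 3, but 2 with upper-quartile factors, 1 in each limma fit of TPM and 1 with the GC trend removed. They numbered 5 with no fold-change threshold, 0 with a threshold of 1, and 1 to 4 on leaving out 1 library. When any single erianin library was left out the number was 1. Calls over all genes also varied, among 11670 to 18052 genes tested per fit. Downregulated genes numbered 431, but 299 with upper-quartile factors, 94, 110 and 88 in the TPM fits, and 452 with the GC trend removed. They numbered 126 to 144 without 1 erianin library and 311 to 797 without 1 DMSO library. Upregulated genes numbered 688, but 837 by DESeq2, 729 with the GC trend removed and 172 to 1485 on leaving out 1 library. The median of all genes was 0.0014, against 0.18, 0.20 and 0.12 in the TPM fits and 0.055 with upper-quartile factors, so values in those fits are read relative to it. Called genes of the related lists, 7 in all, numbered 2 to 11 on leaving out 1 library and 5, 5 and 6 in the TPM fits. On raw counts the share of ITGA3, ITGA6 and ITGA7 differed by -7.30 points.

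Same-numbered libraries did not deviate together (correlations 0.00138, 0.0253 and -0.0329). As DMSO replicate 3 stands apart within its group, these values do not settle whether the numbers pair the libraries. A replicate block left 0 members upregulated, 2 downregulated (LAMA3 at an edgeR adjusted p of 0.0627) and 4 list genes called. Over all genes that fit called 384 upregulated and 281 downregulated.

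Signs turned for 6 members, whose values in the fit of all libraries lay between -0.17 (LAMB3) and 0.24 (ITGA10). With upper-quartile factors the values of LAMB2, LAMC1 and ITGAX, and in the TPM fits that of LAMB3, still lay below the median of all genes. The cause of the turns was not tested. LAMB2 was at 0.023 with upper-quartile factors, 0.17, 0.18 and 0.17 in the TPM fits and 0.052 with the GC trend removed. LAMB3 was at 0.040 in all 3 TPM fits. LAMC1 was at 0.048 with upper-quartile factors, 0.0037 with the filter of 10 counts per library and 0.19 in all 3 TPM fits. ITGAX was at 0.039 with upper-quartile factors, 0.15, 0.18 and 0.15 in the TPM fits and 0.056 with the GC trend removed. On leaving out 1 library, ITGA2B ranged from -0.14 to 0.30, ITGA10 from -0.023 to 0.41, LAMB2 from -0.15 to 0.061, LAMC1 from -0.041 to 0.029 and ITGAX from -0.13 to 0.048.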

Other observations

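The integrin subunits together took 0.341%, 0.352% and 0.375% of the reads on named genes with DMSO and 0.298%, 0.306% and 0.294% with erianin, without overlap. These sums follow the members with most reads, ITGA3 among them, and were not tested.

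Several members lie side by side in the genome. LAMB1 and LAMB4 are 20292 bases apart on chromosome 7, and of this pair LAMB4 had 0 to 2 reads per library. ITGAM and ITGAX are 22241 bases apart on chromosome 16, where ITGAX was at 12.7 to 17.1 CPM and ITGAM at no more than 32 reads in a library.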
